A study of Mus musculus with 11 samples.

Results

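The genes described here are 46 lysosomal genes of the mouse: soluble hydrolases and their cofactors, lysosomal membrane proteins and subunits of the vacuolar proton pump. They were chosen by function, from a written list of symbols, and all 46 were found among the 55487 genes of the count tables. Their RNA was measured in gastrocnemius, the large calf muscle, by QuantSeq 3' mRNA FWD sequencing, which reads transcripts next to their poly(A) tails; each library was made from 450 ng of RNA. There were 4 Raptor mTOR double-knockout libraries (dKO 1 to 4), 3 Raptor knockout libraries (KO 1 to 3) and 4 wild-type libraries (WT 1 to 4), the knockouts being inducible. The knockouts carried loxP-flanked (floxed) Raptor alleles, with floxed mTOR alleles added in the dKO. Their Cre recombinase, fused to a mutated oestrogen receptor domain, was driven by the human skeletal actin promoter, so that deletion was directed to myofibres and not to the other cells of the muscle. All 3 genotypes received tamoxifen, started at 3 months of age and, per the series' design text, given in chow for 7 weeks; tissue was taken 7 months after the start. Whether the wild-type mice carried Cre or floxed alleles is not given in the sources used here. Each library is taken as 1 mouse, and p-values measure the spread between these libraries.

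Lysosomes break down proteins, glycans and lipids delivered by endocytosis and autophagy. Their enzymes work at acid pH, which is kept by the V-ATPase, a rotary pump with a cytosolic V1 sector that hydrolyses ATP and a membrane V0 sector that carries protons. The lysosomal surface is also where the kinase complex mTORC1, of which Raptor is the defining subunit, is docked by Rag GTPases and the Ragulator complex. Active mTORC1 keeps the transcription factor TFEB in the cytosol, and TFEB in the nucleus binds the CLEAR element, an E-box with the core CACGTG found at many lysosomal genes. In skeletal muscle, loss of the lysosomal enzyme acid alpha-glucosidase causes Pompe disease and loss of LAMP2 causes Danon disease.

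Library totals ran from 2791339 to 3536731 counts in dKO, from 3223797 to 3764879 in KO and from 3134575 to 6328533 in WT. Rptor averaged 4.83 ± 0.566 CPM in dKO, 4.57 ± 0.63 CPM in KO and 9.83 ± 0.946 CPM in WT, and it fell in dKO (log2 -1.02 ± 0.21, adjusted p = 0.00156) and in KO (log2 -1.11 ± 0.23, adjusted p = 0.00282). Mtor stood at 35.9 ± 3.36 CPM in dKO, 20.6 ± 2.24 CPM in KO and 20.8 ± 5.95 CPM in WT, and was called higher in dKO (log2 0.78 ± 0.19, adjusted p = 0.00534). A tag from the 3' end need not show the loss of an upstream floxed part. The cause of the Mtor rise was not tested. CPM here is counts-per-million scaled by TMM, given as mean ± SD over 4 dKO, 3 KO and 4 WT libraries, and a value written as log2 is a log2 fold change against WT followed by its SE. A gene is called higher or lower where edgeR's quasi-likelihood test, two-sided, gave a Benjamini-Hochberg adjusted p under 0.05 over the 10505 genes tested. The 12 myofibre markers summed to 110297 to 131510.0 CPM in dKO, 111203 to 124954 CPM in KO and 128869 to 135588 CPM in WT, so the muscle label was borne out by its markers. The sex of the mice and the sequencing run were not balanced between groups. Xist, which marks female animals, was present in dKO 1, 2 and 3 and in WT 3 only. By the run named in the count data, dKO 3 and 4 came from run 1 and the other 9 libraries from run 3. Run 3 is called the larger run below, because it supplied more of the libraries used here.

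In the double knockout the lysosomal genes changed in both directions. Of the 46 genes, 43 passed the filter on low counts and 12 of these were called against wild type, 27.9%, beside 26.7% of all genes tested. The proteases legumain and cathepsin Z, the cholesterol-binding NPC2, progranulin, LAMP2, CD63 and the pump proteins Atp6ap2 and Atp6v0e rose, 8 genes beside a background of 13% of genes called higher. Prosaposin, LAMP1, NPC1 and the V1 subunit Atp6v1d fell, 4 genes beside a background of 13.7% called lower. The share of members called was therefore near that of all genes, and the median log2 fold change was 0.14 over the 43 genes and 0.02 over all genes. The levels of the 2 groups did not overlap for 15 of the 43 genes (34.9%), beside 26.8% of all genes.

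In the Raptor knockout alone, genes were likewise called in both directions. Against wild type 10 of the 43 genes were called, 23.3%, beside 18.2% of all genes. Lgmn, Ctsz, Cd63, Atp6ap2 and Atp6v0e rose (background 8.73% called higher), and Psap, Lamp1, Npc1, Atp6v1d and Atp6v1g1 fell (background 9.43% called lower). The median log2 fold change was -0.00, and 0.00 over all genes. Levels did not overlap with WT for 9 of the 43 genes (20.9%), beside 27.3% of all genes. The 2 comparisons share their 4 WT libraries; 5 genes were called higher and 4 lower in both, 3 were called in dKO only (Npc2, Grn and Lamp2) and 1 in KO only (Atp6v1g1). No gene was called with opposite signs, and 30 of the 43 tested genes were called in neither.

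No difference between the 2 knockouts was detected in these genes. Between dKO and KO, 0 of the 43 genes were called by edgeR, 0 by DESeq2 and 0 by limma, and 0 had an unadjusted p under 0.05, beside 0.0286% of all genes called by edgeR (0.00952% higher and 0.019% lower). The largest log2 fold change was 0.50 ± 0.39 for Mcoln1, the smallest adjusted p was 0.716 for Ctsc, and the median SE was 0.20. No gene had levels that did not overlap between dKO and KO, beside 12.2% of all genes. The genes called in dKO only or in KO only are accordingly not shown to differ between the knockouts: the dKO minus KO log2 difference was 0.23 ± 0.20 for Npc2, 0.33 ± 0.24 for Grn, 0.11 ± 0.15 for Lamp2 and 0.12 ± 0.13 for Atp6v1g1.

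**Figure D1:**
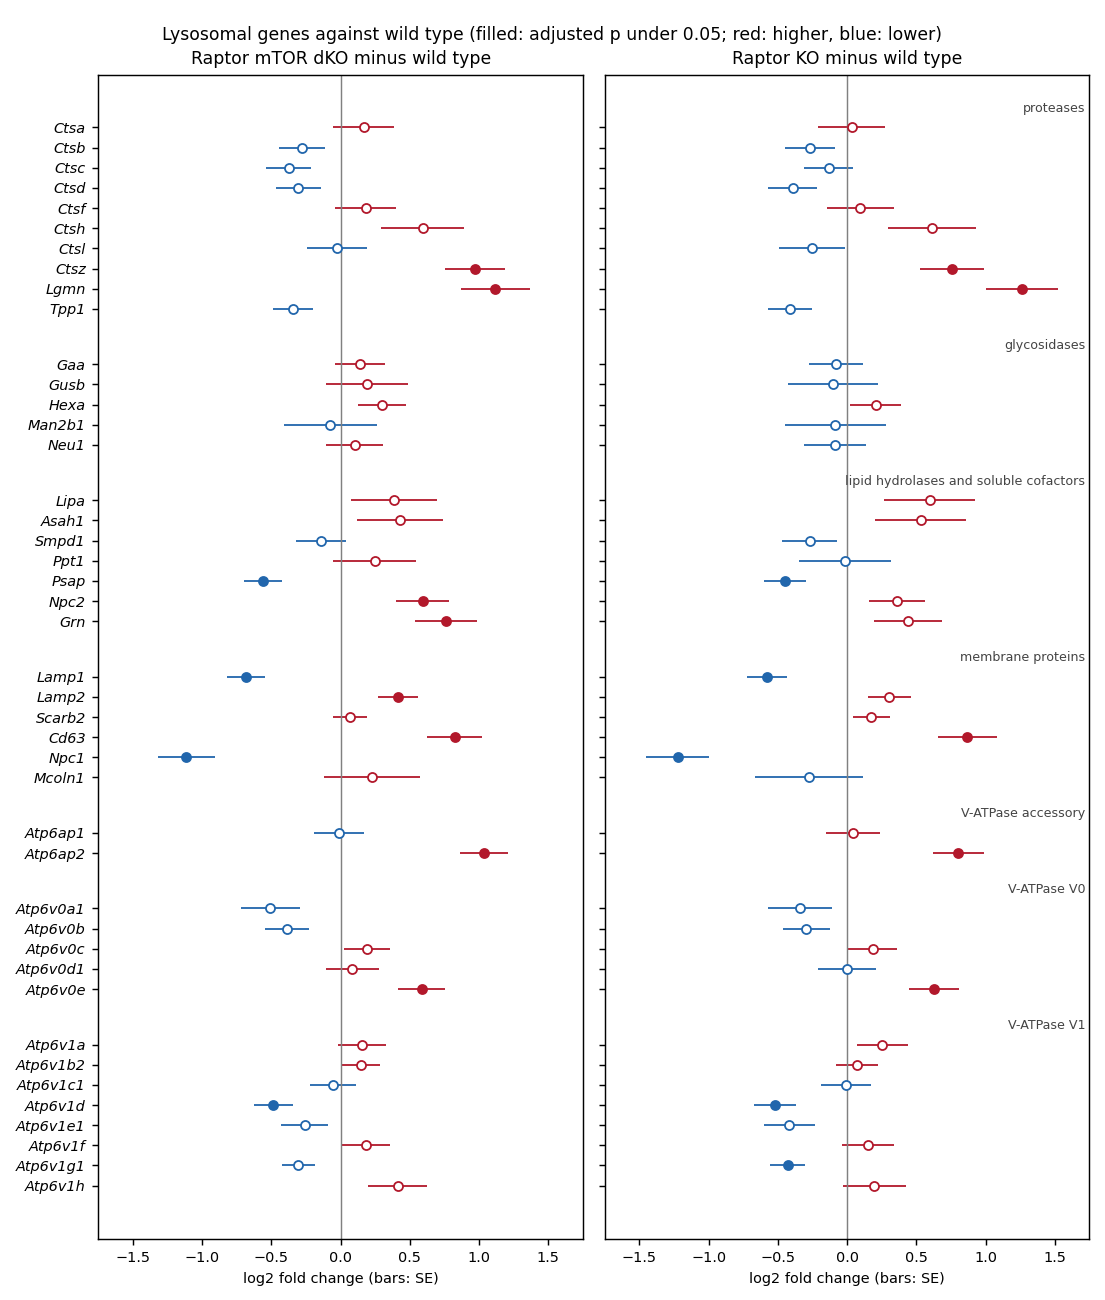
Log2 fold change of each of the 43 tested genes, by role, for dKO minus WT on the left and KO minus WT on the right; bars are the SE and filled points have an adjusted p under 0.05. The 12 filled points on the left and the 10 on the right lie on both sides of 0 in each panel.

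Some markers of macrophages and of fibro-adipogenic cells were called higher in both knockouts, beside the genes that rose. The 20 macrophage and monocyte markers summed to 216 to 280.3 CPM in dKO, 169.7 to 289 CPM in KO and 110.5 to 188 CPM in WT; of 14 tested, 7 were called higher in dKO, 4 in KO and 0 lower in either. Among them were Lyz2 at 52.8 ± 8.41 CPM in dKO, 55.9 ± 23.3 CPM in KO and 32.9 ± 7.07 CPM in WT, and Mrc1 at 18.3 ± 2.38 CPM in dKO, 19.8 ± 5.54 CPM in KO and 10.4 ± 4.04 CPM in WT. The 10 fibro-adipogenic markers summed to 1114 to 1336 CPM in dKO, 1027 to 1119 CPM in KO and 632 to 961 CPM in WT, with 7 called higher in dKO and 4 in KO. Grn, Ctsz, Lgmn and Cd63 are expressed in such cells as well as in myofibres, and the part of these cells in the rises was not tested. In whole muscle, more cells of a type and more RNA per cell cannot be told apart.

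No marker of any list was at 0 in every library. Of the endothelial, adipocyte, Schwann and satellite cell lists, 0 markers were called in dKO or in KO, and the endothelial sum was 136 to 171 CPM in dKO, 158 to 189.5 CPM in KO and 137 to 234 CPM in WT. The 10 markers of other leukocytes summed to 123 CPM in dKO 3 and to at most 20.2 CPM in every other library, with 0 of 3 tested called. Of the 12 myofibre markers 3 were called higher and 4 lower in each knockout.

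**Figure D2:**
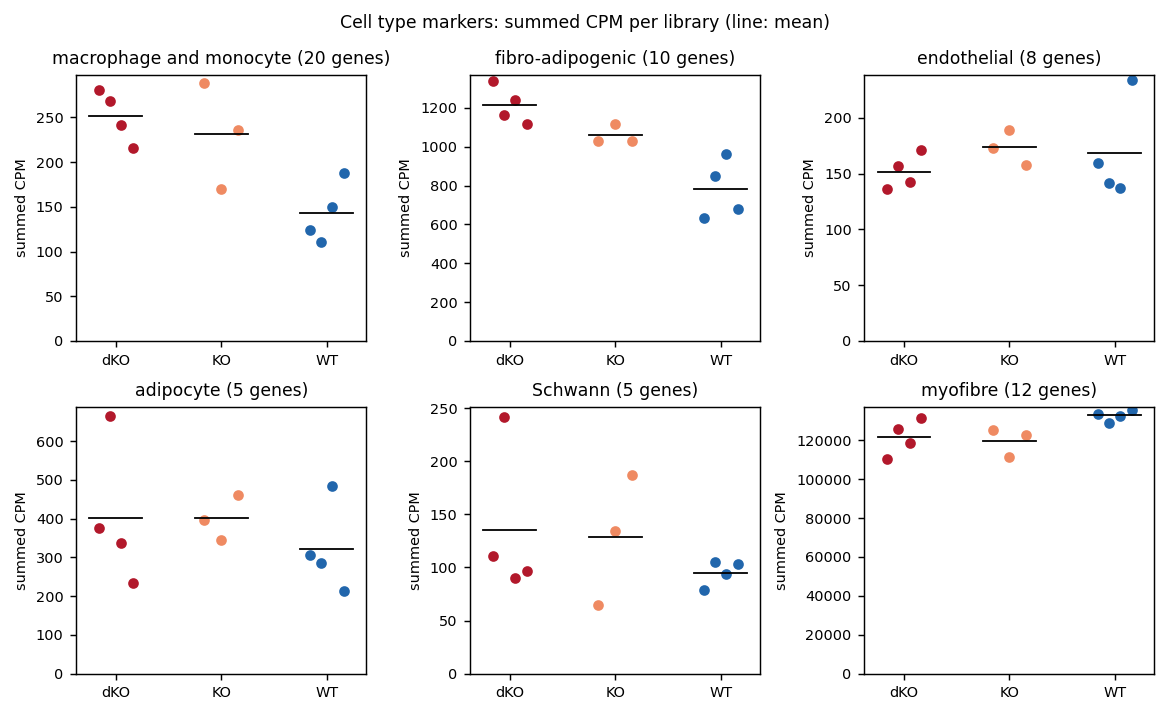
Summed CPM of the markers of 6 cell types, a point per library and a line at the mean, with dKO left, KO in the middle and WT right. The fibro-adipogenic sums of all knockout libraries lie above those of WT, and the macrophage sums of the dKO libraries lie above those of WT while KO 2 lies within them.

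How far the counts rest on single libraries, on the run and on Xist is given here once. In the larger run alone (2 dKO against 4 WT) 6 genes were called higher and 3 lower in dKO, and with Xist status as a covariate 4 higher and 3 lower. With only the 7 libraries that lack Xist, of which 1 was dKO, 0 genes were called in dKO, where 7 had an unadjusted p under 0.05 and 4.22% of all genes were called; the lone dKO library is then assumed to vary like the others. The same libraries gave 2 genes higher and 3 lower in KO, beside 11.3% of all genes called. Of the 10 genes called in KO, Lgmn, Atp6ap2, Npc1, Lamp1 and Atp6v1d stayed called in the libraries without Xist. The KO calls of Psap, Atp6v0e, Ctsz, Cd63 and Atp6v1g1 were lost there, which the gene paragraphs below do not repeat. The dKO count of higher genes was 4 without dKO 1, 5 without dKO 2, 5 without WT 1 and 10 without WT 4. In dKO the count of lower genes was 6 without WT 4, against 4 with all libraries. The KO count of higher genes was 2 without KO 1, 2 without KO 3, 3 without WT 3 and 7 without WT 4. For lower genes in KO it was 2 without KO 1, 2 without KO 3 and 3 without KO 2, WT 1 or WT 2. Scaling by library totals in place of TMM moved the median of all genes by 0.23 in dKO and 0.20 in KO on the log2 scale and gave 12 higher and 2 lower genes in dKO and 6 higher and 1 lower in KO. Under either scaling genes were called in both directions in each knockout. The share of all genes called is given only for all libraries with TMM and for the libraries without Xist. Counts under the other settings, here and below, have no such background beside them.

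The RefSeq windows of the 3 called genes that hold a CACGTG are printed, to show where the TFEB core stands. Windows of 300 bases, 250 before the annotated start and 50 from it on, were taken from RefSeq on GRCm38.p6 for 38 of the 46 genes, 43 windows in all since 4 genes have several starts. In each sequence, 5′ to 3′ in the direction of the gene, capitals mark CACGTG, which reads the same on both strands. The windows are Lamp1 at chr8:13158911-13159210, plus strand, Lgmn at chr12:102439043-102439342, minus strand (1 of its 2 windows) and Atp6v0e at chr17:26676146-26676445, plus strand.
Lamp1: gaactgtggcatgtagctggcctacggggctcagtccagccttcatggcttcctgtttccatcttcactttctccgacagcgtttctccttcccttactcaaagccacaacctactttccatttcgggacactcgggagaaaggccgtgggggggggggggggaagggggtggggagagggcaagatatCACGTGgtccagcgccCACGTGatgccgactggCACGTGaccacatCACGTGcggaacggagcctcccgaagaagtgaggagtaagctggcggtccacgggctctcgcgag
Lgmn: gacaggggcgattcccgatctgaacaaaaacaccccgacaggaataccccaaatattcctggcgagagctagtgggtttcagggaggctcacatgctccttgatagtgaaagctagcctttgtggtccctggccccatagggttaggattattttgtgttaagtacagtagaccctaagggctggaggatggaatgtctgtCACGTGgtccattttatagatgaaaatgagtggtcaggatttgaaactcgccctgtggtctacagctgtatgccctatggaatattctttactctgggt
Atp6v0e: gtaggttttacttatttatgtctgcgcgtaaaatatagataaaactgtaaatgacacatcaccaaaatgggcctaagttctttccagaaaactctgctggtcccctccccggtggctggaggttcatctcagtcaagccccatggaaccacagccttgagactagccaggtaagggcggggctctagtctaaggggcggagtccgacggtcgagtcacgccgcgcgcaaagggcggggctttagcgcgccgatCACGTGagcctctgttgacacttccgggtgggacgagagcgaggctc
Lamp1 carried 4 cores, at -61, -45, -28 and -15 from the start base, Lgmn 1 at -49 and Atp6v0e 1 at 3. Lamp1 fell in both knockouts and Lgmn and Atp6v0e rose in both, so the 3 called genes with a core did not move in 1 direction. Position is counted from the start base of the window, which need not be the 5' end of the gene in the GENCODE annotation: for Lamp1 the 2 are the same base, but the Lgmn window with the core has its start base 721 bases inside the gene and the Atp6v0e window 13165 bases inside it. The other Lgmn window, whose start is 85 bases inside the gene, held 0 cores, so for Lgmn the core stands at the more internal of 2 RefSeq starts. Atp6v0e has 1 window, so its core stands at the only RefSeq start taken for it. The GENCODE end is the outer limit of the gene, and which start is used in this muscle was not tested.

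Across the whole set, 14 of the 38 genes with a window (36.8%) held CACGTG, and so did 8.09% of the 27025 genes of the promoter table. The longer forms were searched on both strands, and each contains the core: TCACGTGA was in 7 genes (18.4%) and 1.12% of all genes, and GTCACGTG in 9 genes (23.7%) and 2.55% of all genes. Within 100 bases before the start the core was in 8 genes (21.1%) and 3.70% of all genes. Of the genes called in either knockout with a window, 3 of 11 held the core, and of the genes not called 11 of 27. Those 11 were Atp6v0b, Atp6v0d1, Atp6v1a, Ctsa, Ctsd, Ctsf, Ctsl, Gaa, Gla, Glb1 and Mcoln1, of which Gla and Glb1 were not tested. A match in these windows is a description of the letters and not of binding, and the 43 windows were not tested against other promoters. Of the 14 windows with the core, 7 had their start base within 100 bases of the 5' end of the gene and 7 had it over 100 bases inside. The promoters of Asah1, Atp6v1b2, Atp6v1c1, Atp6v1g1, Atp6v1h, Ctsb, Ctsh and Npc1 were not analysed here.

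**Figure D3:**
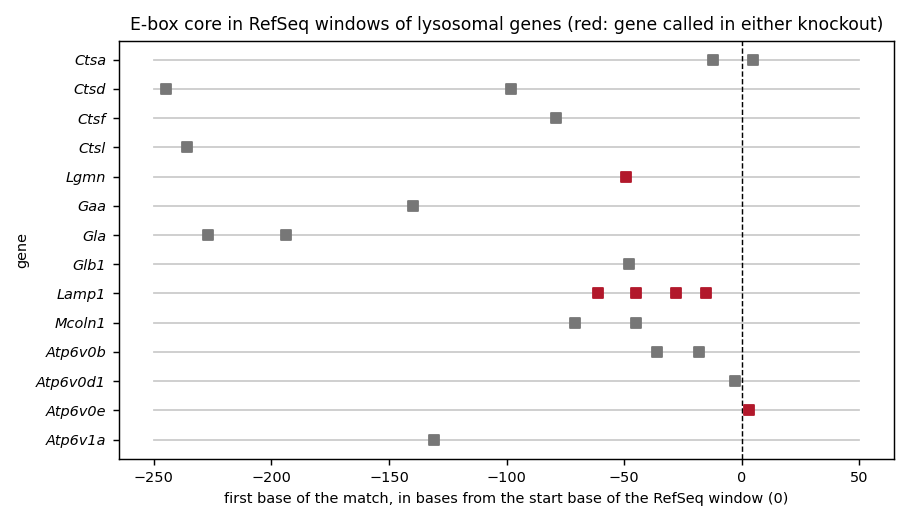
Position of each CACGTG, in bases from the start base of its RefSeq window, in the windows of the 14 genes that hold it, with genes called in either knockout in red. The 22 matches include 4 in Lamp1 between -61 and -15, and 16 of the 22 lie from 100 bases before that base to the end of the window.

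Of the 10 proteases, which are cathepsins, legumain and tripeptidyl peptidase, all were tested. In each knockout 2 rose and 0 fell. That is 20% in each, beside 26.7% of all genes called in dKO and 18.2% in KO. Legumain (Lgmn, chr12:102394084-102439813, minus strand, coordinates on GRCm38) is the asparagine-specific protease that also trims other cathepsins to their mature forms. Its level was 14.5, 23.7, 17.2 and 16 CPM in dKO 1 to 4, 21.5, 16.8 and 21.1 CPM in KO 1 to 3 and 6.21, 9.30, 12 and 5.18 CPM in WT 1 to 4. Every knockout library of both kinds lay above every WT library. The log2 fold change was 1.12 ± 0.25 in dKO (adjusted p = 0.00326) and 1.26 ± 0.26 in KO (adjusted p = 0.00309), and both calls stood whichever single library was left out.

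Cathepsin Z (Ctsz, chr2:174427493-174439039, minus strand) is a carboxypeptidase. It was measured at 13.3, 20.5, 20.1 and 18.9 CPM in the dKO libraries, 20.0, 11.1 and 16.1 CPM in the KO libraries and 9.66, 11.4, 7.89 and 8.79 CPM in the WT libraries. The dKO libraries were all above the WT libraries, while KO 2 lay just under WT 2. Ctsz rose by log2 0.97 ± 0.21 in dKO (adjusted p = 0.00315) and by 0.76 ± 0.23 in KO (adjusted p = 0.0319); the KO call was lost without KO 1, KO 3, WT 1 or WT 3 (log2 0.54 to 0.79, adjusted p from 0.0548 to 0.204). The Ctsz call in KO was also lost with a fit of 2 groups, the larger run alone, the Xist covariate, DESeq2 and limma on unfiltered log2 TPM (log2 0.71 to 0.76, adjusted p from 0.0532 to 0.0612). The antisense neighbour Nelfcd runs over the 3' end of Ctsz and had 362 counts beside 594 for Ctsz; the strand setting of the counting is not given, so reads of the pair cannot be told apart.

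The other 8 proteases were not called in either knockout with all libraries and TMM. Cathepsin D (Ctsd), an aspartic protease, had by far the highest CPM of them, at 301, 325, 293 and 318 CPM in dKO, 307, 279.9 and 289 CPM in KO and 305, 342, 324 and 562 CPM in WT. WT 4 stood well above the other 3 WT libraries, and the log2 fold change was -0.31 ± 0.16 in dKO (adjusted p = 0.181) and -0.39 ± 0.18 in KO (adjusted p = 0.14). Cathepsin B (Ctsb) averaged 108 ± 20.6 CPM in dKO, 109 ± 25.5 CPM in KO and 131 ± 15.7 CPM in WT. The antisense Fdft1, with 1409 counts beside 5081 for Ctsb, covers the 3' end of Ctsb. Cathepsin L (Ctsl), a protease known from muscle wasting, averaged 66.2 ± 10.3 CPM in dKO, 56.5 ± 5.99 CPM in KO and 67 ± 27.1 CPM in WT, with the WT mean raised by WT 3 at 107 CPM. Tpp1, which removes tripeptides, ran from 41.6 to 44.7 CPM in dKO, from 36 to 47.7 CPM in KO and from 45.3 to 65 CPM in WT; dKO and WT did not overlap, but the adjusted p was 0.0934. For Ctsh, an aminopeptidase, the log2 fold change was 0.59 ± 0.30 in dKO and 0.61 ± 0.32 in KO on levels of only 2.53 to 7.21 CPM in WT, and the adjusted p was 0.159 and 0.20. With library totals Ctsh was called higher in dKO (log2 0.83, adjusted p = 0.0483). The values of Ctsa, Ctsc and Ctsf lay between -0.38 and 0.18 in dKO and between -0.13 and 0.10 in KO on the log2 scale. The antisense Pltp, with 266 counts beside 801 for Ctsa, covers the 3' end of Ctsa.

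With TMM the glycosidases gave no call. Of 8 genes, Gla, Glb1 and Manba were under the filter, with 27, 92 and 59 counts over all 11 libraries. Glb1, the lysosomal beta-galactosidase, ran from 1.86 to 4.58 CPM in dKO, from 1.79 to 3.23 CPM in KO and from 1.38 to 1.79 CPM in WT, and Gla and Manba exceeded 1.48 and 3.49 CPM in no library. In the tests, 0 of the 5 tested were called in dKO or in KO. Gaa, the acid alpha-glucosidase lost in Pompe disease, stood at 95.1, 119, 82.7 and 94.4 CPM in dKO, 100.2, 71.7 and 79.8 CPM in KO and 79.4, 77.6, 74.7 and 124 CPM in WT. The groups overlapped, with WT 4 above every other library, and the log2 fold change was 0.14 ± 0.18 in dKO (adjusted p = 0.599) and -0.08 ± 0.19 in KO (adjusted p = 0.817). Hexa, the alpha subunit of beta-hexosaminidase, was at 23.1, 26.1, 23.6 and 26.2 CPM in dKO, 27.9, 16 and 25.8 CPM in KO and 18.9, 20.0, 21.2 and 20.3 CPM in WT. All dKO libraries lay above all WT libraries, by a log2 fold change of 0.30 ± 0.17 that was not called (adjusted p = 0.218). With library totals Hexa was called higher in dKO (log2 0.53, adjusted p = 0.0331). Gusb, Man2b1 and Neu1, a glucuronidase, a mannosidase and a sialidase, had log2 fold changes between -0.07 and 0.19 in dKO and between -0.10 and -0.09 in KO.

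Among the 7 lipid hydrolases and soluble cofactors, 2 rose and 1 fell in dKO, and 0 rose and 1 fell in KO. These are 42.9% and 14.3%, beside 26.7% and 18.2% of all genes. Prosaposin (Psap, chr10:60277627-60302597, plus strand), the precursor of the saposins that present sphingolipids to their hydrolases, was the most abundant of the 46 genes in CPM. Its level was 338, 451, 348 and 327 CPM in dKO, 436, 333 and 419.8 CPM in KO and 487, 519.5, 518 and 639 CPM in WT. Every knockout library was below the lowest WT library. The log2 fold change of Psap was -0.56 ± 0.14 in dKO (adjusted p = 0.00663) and -0.45 ± 0.15 in KO (adjusted p = 0.049). The dKO call was lost with library totals, the run as a covariate, the larger run alone and limma on unfiltered log2 TPM (log2 -0.46 to -0.33, adjusted p from 0.0627 to 0.101). The KO call, which sat at the threshold, was lost without dKO 1, dKO 3, dKO 4, KO 1, KO 2, KO 3, WT 1, WT 2 or WT 4 (log2 -0.52 to -0.34, adjusted p from 0.0512 to 0.171). The Psap call in KO was also lost with library totals, a fit of 2 groups, the run as a covariate, the larger run alone, the Xist covariate and limma on log2 TPM in its 3 forms (log2 -0.45 to -0.24, adjusted p from 0.0515 to 0.27).

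Progranulin (Grn, chr11:102430315-102437048, plus strand) is a secreted and lysosomal protein that binds prosaposin and is abundant in macrophages. It was at 24.3, 19.4, 19.3 and 17.4 CPM in dKO, 20.0, 12.5 and 15.6 CPM in KO and 8.97, 7.87, 13.7 and 16 CPM in WT. The dKO libraries were all above the WT libraries and the KO libraries overlapped them. Grn had a log2 fold change of 0.76 ± 0.23 in dKO (adjusted p = 0.0196) and 0.44 ± 0.25 in KO (adjusted p = 0.238). The dKO call was lost without dKO 1 or WT 1 (log2 0.65 to 0.67, adjusted p from 0.053 to 0.0727) and with Xist status as a covariate, at 0.63 (adjusted p = 0.0982); the antisense Fam171a2, with 105 counts beside 674 for Grn, overlaps its 3' end.

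NPC2 (Npc2, chr12:84754562-84773152, minus strand) is the soluble protein that hands cholesterol to NPC1 for export from the lysosome. Its level was 39.2, 47.4, 32.6 and 34.9 CPM in dKO, 40.0, 28.4 and 29.9 CPM in KO and 18.9, 22.5, 28.1 and 32.2 CPM in WT, with dKO 3 only just above WT 4 and KO overlapping WT. Npc2 rose in dKO by log2 0.59 ± 0.19 (adjusted p = 0.0294), and its KO log2 fold change was 0.36 ± 0.20 (adjusted p = 0.24). The dKO call was lost without dKO 1, dKO 2, WT 1 or WT 2 (log2 0.48 to 0.57, adjusted p from 0.0631 to 0.0989) and was 0.50 (adjusted p = 0.127) with the Xist covariate. The other 4 genes of the group, the acid lipase Lipa, acid ceramidase Asah1, acid sphingomyelinase Smpd1 and the thioesterase Ppt1, were not called. Their log2 fold changes lay between -0.14 and 0.43 in dKO and between -0.27 and 0.60 in KO. The antisense Cap1 covers the 3' end of Ppt1 and had 279 counts beside 275 for Ppt1, so the Ppt1 level is uncertain.

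Of the 6 membrane proteins, 2 rose and 2 fell in dKO, and 1 rose and 2 fell in KO. These are 66.7% and 50%, beside 26.7% and 18.2% of all genes. Npc1, the membrane transporter that exports cholesterol from the lysosome and lies on chromosome 18, showed the largest fall of the 43 tested genes in both knockouts. It was at 17.1, 12.1, 13.3 and 16.9 CPM in dKO, 14.4, 14.9 and 11.7 CPM in KO and 42.1, 37.5, 26.5 and 22.8 CPM in WT. The highest knockout library was below the lowest WT library, WT 4. For Npc1 the log2 fold change was -1.11 ± 0.21 in dKO (adjusted p = 8.55e-04) and -1.23 ± 0.23 in KO (adjusted p = 0.00148), and no single library removed either call; the dKO call was lost with limma on unfiltered log2 TPM (log2 -0.72, adjusted p = 0.0544). The antisense Rmc1, with 102 counts beside 908, covers the 3' end of Npc1. Npc1 and its soluble partner Npc2 thus differed in direction in dKO.

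LAMP1 and LAMP2 are the heavily glycosylated proteins that line the lysosomal membrane, and their RNAs also differed in direction in dKO. Lamp1 (chr8:13159161-13175338, plus strand) was at 183, 221, 177 and 176 CPM in dKO, 220.5, 166 and 223 CPM in KO and 286, 277, 293 and 359 CPM in WT, with all knockout libraries below all WT libraries. Its log2 fold change was -0.68 ± 0.13 in dKO (adjusted p = 0.00136) and -0.58 ± 0.15 in KO (adjusted p = 0.0116), and the KO call was lost without KO 2 (log2 -0.46, adjusted p = 0.0554). The Lamp1 call in KO was also lost with library totals and limma on unfiltered log2 TPM (log2 -0.47 to -0.38, adjusted p from 0.0636 to 0.0848); with library totals the dKO value was -0.45 (adjusted p = 0.0219). Lamp1 is the gene whose promoter is printed above with 4 cores; its antisense neighbour Grtp1 had 170 counts beside 10297.

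Lamp2 (chrX:38401357-38456454, minus strand), the gene of Danon disease, is X-linked, and its level was 64.2, 64.4, 72.1 and 57.8 CPM in dKO, 54.9, 56.9 and 68.1 CPM in KO and 50.2, 49.3, 55.3 and 39 CPM in WT. The dKO libraries lay above the WT libraries by a small margin, and KO 1 lay between WT libraries. Its log2 fold change was 0.41 ± 0.14 in dKO (adjusted p = 0.0415) and 0.31 ± 0.15 in KO (adjusted p = 0.186). With library totals Lamp2 was called higher in KO (log2 0.50, adjusted p = 0.0485). The dKO call was lost without dKO 1, dKO 2, dKO 3, KO 1, WT 1, WT 2 or WT 4 (log2 0.32 to 0.45, adjusted p from 0.0575 to 0.115). The Lamp2 call in dKO was also lost with all genes kept, the run as a covariate, the larger run alone and the Xist covariate (log2 0.30 to 0.41, adjusted p from 0.124 to 0.204), and with library totals the value was 0.64 (adjusted p = 0.00626).

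Cd63 (chr10:128900989-128912822, plus strand), a tetraspanin of late endosomes, lysosomes and exosomes, was at 77.7, 109.6, 109 and 109 CPM in dKO, 115, 76.6 and 123 CPM in KO and 60.8, 73.3, 58.6 and 37.6 CPM in WT. All knockout libraries were above all WT libraries, with dKO 1 and KO 2 the lowest of their groups. Cd63 had a log2 fold change of 0.82 ± 0.20 in dKO (adjusted p = 0.00616) and 0.87 ± 0.21 in KO (adjusted p = 0.00955). The KO call was lost without KO 1 or KO 3 (log2 0.74 to 0.79, adjusted p from 0.053 to 0.0583), and the dKO call with the run as a covariate and the larger run alone (log2 0.71, adjusted p from 0.0513 to 0.0746). The value is uncertain because the pseudogene Cd63-ps is 99.3% identical over the last 300 bases and took 493 counts beside 3581 for Cd63. Scarb2, the receptor that carries glucocerebrosidase to the lysosome, and Mcoln1, the TRPML1 calcium channel, were not called, with log2 fold changes of 0.07 ± 0.13 and 0.22 ± 0.34 in dKO and 0.18 ± 0.14 and -0.27 ± 0.39 in KO.

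**Figure D4:**
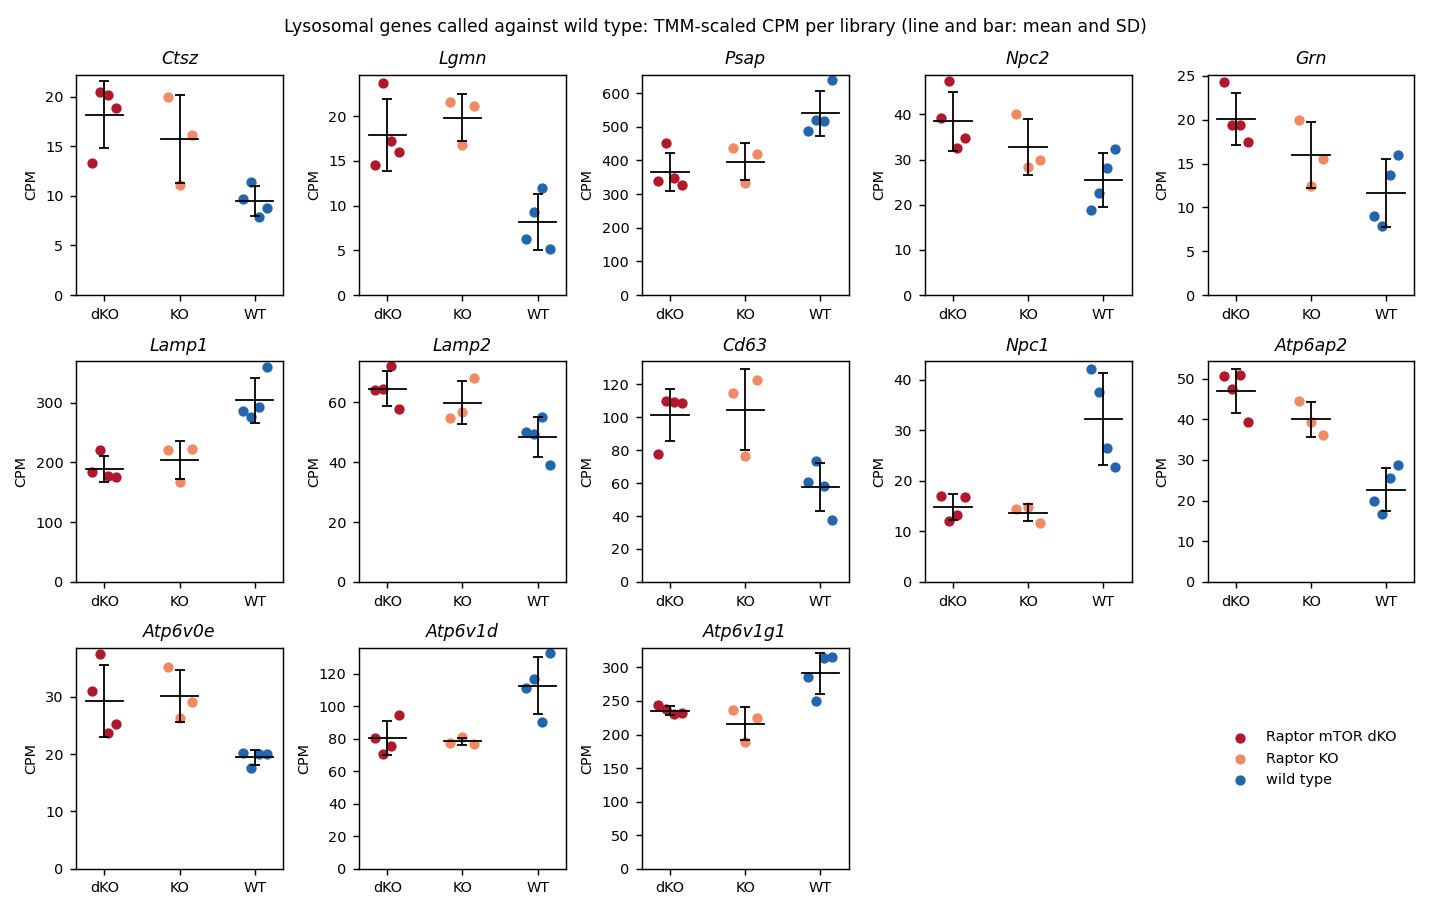
CPM of each of the 13 genes called in either knockout, a point per library with the group mean as a line and the SD as a bar, with dKO left, KO in the middle and WT right. Lgmn, Atp6ap2 and Cd63 show all knockout points above the WT points, and Npc1, Lamp1 and Psap show all of them below.

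Genes of the proton pump were called in both directions. Of its 15 genes, all tested, 2 rose and 1 fell in dKO and 2 rose and 2 fell in KO. These are 20% in dKO and 26.7% in KO, beside 26.7% and 18.2% of all genes. The median log2 fold change of the pump genes was 0.08 in dKO and 0.04 in KO. The accessory protein Atp6ap2 (chrX:12587801-12617049, plus strand), also known as the prorenin receptor, helps to assemble the pump. Its level was 50.6, 47.4, 50.9 and 39.2 CPM in dKO, 44.6, 39.3 and 36.1 CPM in KO and 19.8, 16.8, 25.7 and 28.6 CPM in WT. The lowest knockout library, KO 3, was above the highest WT library, WT 4. Atp6ap2 rose by log2 1.04 ± 0.17 in dKO (adjusted p = 3.41e-04) and 0.80 ± 0.18 in KO (adjusted p = 0.00627), and both calls stood whichever library was left out.

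Atp6ap2 is X-linked, and with Xist status as a covariate its log2 fold change was 0.90 (adjusted p = 0.00379) in dKO and 0.88 (adjusted p = 0.00416) in KO. Its partner Atp6ap1, also X-linked, was not called: it averaged 41 ± 2.61 CPM in dKO, 42.7 ± 10.5 CPM in KO and 41.3 ± 10.1 CPM in WT, a log2 fold change of -0.01 ± 0.18 in dKO and 0.04 ± 0.20 in KO.

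In the V0 sector 1 of 5 genes was called, 20% in each knockout beside 26.7% of all genes in dKO and 18.2% in KO. Atp6v0e (chr17:26663231-26699647, plus strand), the small e subunit, was at 31, 37.4, 23.6 and 25.3 CPM in dKO, 35.1, 26.3 and 29.1 CPM in KO and 20.2, 17.5, 20.1 and 20.1 CPM in WT. All knockout libraries were above all WT libraries, which lay close together. The log2 fold change was 0.58 ± 0.17 in dKO (adjusted p = 0.0183) and 0.63 ± 0.18 in KO (adjusted p = 0.0255). The dKO call was lost without dKO 1 or dKO 2 (log2 0.44 to 0.55, adjusted p from 0.0519 to 0.0721) and with the Xist covariate, at 0.50 (adjusted p = 0.0941), and the KO call was lost without KO 1, KO 3, WT 2 or WT 3 (log2 0.50 to 0.65, adjusted p from 0.0525 to 0.148). The Atp6v0e call in KO was also lost with all genes kept (log2 0.57, adjusted p = 0.0512).

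With all libraries, TMM and the filter on low counts, the other V0 genes were not called in either knockout. Atp6v0a1, the a subunit that forms the proton path with the c ring, averaged 30.5 ± 1.74 CPM in dKO, 34.3 ± 6.54 CPM in KO and 43.2 ± 16.5 CPM in WT, where WT 4 was the highest library. Its dKO libraries lay below the WT libraries without overlap, at a log2 fold change of -0.51 ± 0.21 (adjusted p = 0.0914). Atp6v0a1 was called lower in dKO with all genes kept (log2 -0.55, adjusted p = 0.0269). It was also called lower there without WT 3 (log2 -0.64, adjusted p = 0.0434). Atp6v0c, the ring subunit, averaged 173 ± 5.14 CPM in dKO, 173 ± 4.86 CPM in KO and 152 ± 47.3 CPM in WT. WT 4 was at 221 CPM and the other WT libraries at 118 to 138 CPM. Without WT 4, Atp6v0c was called higher in dKO (log2 0.43, adjusted p = 0.00253) and in KO (log2 0.42, adjusted p = 0.00593). With library totals it was called higher in dKO (log2 0.43, adjusted p = 0.0488). Its near-identical pseudogenes Atp6v0c-ps1 and Atp6v0c-ps2 are listed at 0 counts in every library. Atp6v0b and Atp6v0d1 had log2 fold changes of -0.39 ± 0.16 and 0.08 ± 0.19 in dKO and of -0.30 ± 0.17 and -0.00 ± 0.21 in KO. Without WT 1, Atp6v0b was called lower in dKO (log2 -0.47, adjusted p = 0.0407).

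In the V1 sector 1 of 8 genes was called lower in dKO and 2 of 8 in KO, and 0 were called higher. These are 12.5% and 25%, beside 26.7% and 18.2% of all genes. Atp6v1d (chr12:78840725-78861638, minus strand), the D subunit of the central rotor, was at 80.3, 70.8, 75.8 and 94.7 CPM in dKO, 77.4, 80.9 and 76.9 CPM in KO and 111, 117, 90.3 and 133 CPM in WT. The KO libraries were all below the WT libraries, while dKO 4 lay above WT 3. The log2 fold change was -0.49 ± 0.14 in dKO (adjusted p = 0.0169), a call lost without dKO 2 or dKO 3 (log2 -0.46 to -0.43, adjusted p from 0.0502 to 0.0552). The Atp6v1d call in dKO was also lost with library totals, the Xist covariate and limma on log2 TPM in its 3 forms (log2 -0.30 to -0.25, adjusted p from 0.14 to 0.236). In KO it was -0.52 ± 0.15 (adjusted p = 0.0259), a call lost without KO 1, KO 3, WT 1 or WT 2 (log2 -0.51 to -0.49, adjusted p from 0.0542 to 0.0969). The Atp6v1d call in KO was also lost with library totals, a fit of 2 groups and limma on log2 TPM in its 3 forms (log2 -0.51 to -0.30, adjusted p from 0.0546 to 0.247).

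Atp6v1g1 (chr4:63544772-63550750, plus strand), the G subunit of the peripheral stalk, was the most abundant pump gene in CPM, at 243, 238, 230.0 and 232 CPM in dKO, 236, 189.5 and 224 CPM in KO and 286, 249.6, 313 and 315 CPM in WT. All knockout libraries were below all WT libraries, with WT 2 the nearest. With all libraries in edgeR only the KO value passed the threshold. The log2 fold change was -0.31 ± 0.12 in dKO (adjusted p = 0.0633) and -0.43 ± 0.13 in KO (adjusted p = 0.0275). In dKO Atp6v1g1 was called lower by DESeq2 (log2 -0.33, adjusted p = 0.0204) and without WT 2 (log2 -0.36, adjusted p = 0.0359). The KO call was lost without KO 1, KO 2 or KO 3 (log2 -0.50 to -0.34, adjusted p from 0.0503 to 0.107). The Atp6v1g1 call in KO was also lost with library totals, a fit of 2 groups, the larger run alone and limma on log2 TPM in its 3 forms (log2 -0.43 to -0.23, adjusted p from 0.054 to 0.253). The catalytic A subunit Atp6v1a and the B subunit Atp6v1b2 were not called, with log2 fold changes of 0.15 ± 0.17 and 0.14 ± 0.14 in dKO and 0.26 ± 0.19 and 0.07 ± 0.15 in KO. The remaining V1 genes, Atp6v1c1, Atp6v1e1, Atp6v1f and Atp6v1h, lay between -0.26 and 0.41 in dKO and between -0.42 and 0.20 in KO. Atp6v1h was called higher in dKO with library totals (log2 0.65, adjusted p = 0.0343). Atp6v1e1 was called lower in KO with the Xist covariate (log2 -0.51, adjusted p = 0.0489). The same call was made without KO 2 (log2 -0.61, adjusted p = 0.0457).

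**Figure D5:**
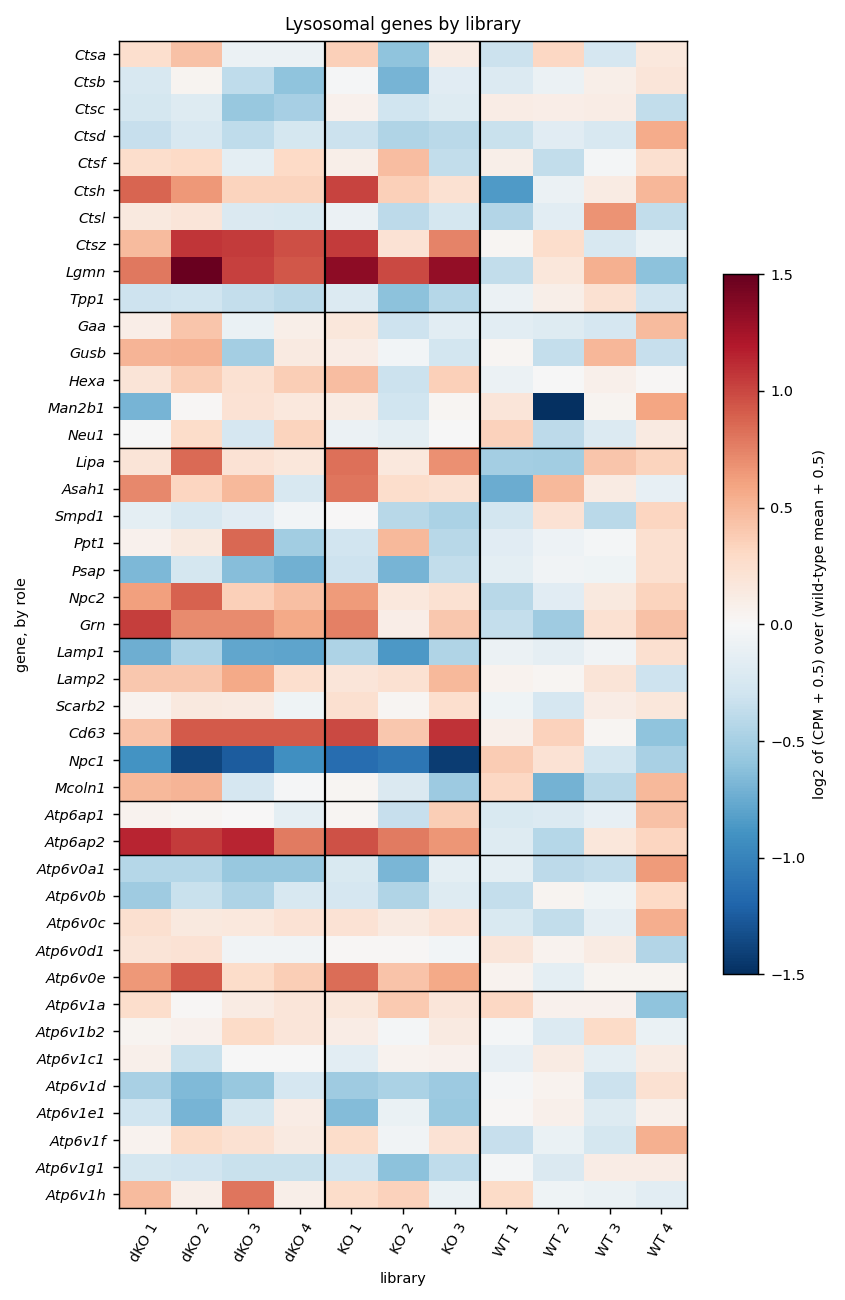
Each of the 43 tested genes, by role, in each of the 11 libraries, as log2 of its CPM plus 0.5 over the WT mean plus 0.5, with dKO left, then KO, then WT; colours are cut off at 1.5 in either direction. Rows of 1 role carry red and blue side by side, and WT 4 stands out in several rows, among them Ctsd, Gaa and Atp6v0a1.

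Compared per length, on the deposited TPM scale, the order of levels was led by 2 genes of the V1 sector. Atp6v1f averaged 244 TPM in dKO, 230.0 TPM in KO and 190.5 TPM in WT. Atp6v1g1 averaged 211 TPM in dKO, 187 TPM in KO and 234 TPM in WT, above Atp6v1f in WT and below it in both knockouts; the order was not tested. Ctsd, at 159 TPM in dKO, 145 TPM in KO and 174 TPM in WT, and Psap, at 139 TPM in dKO, 146 TPM in KO and 184 TPM in WT, were the highest of the soluble proteins. At the low end Gla averaged 0.105 TPM in dKO, 0.14 TPM in KO and 0.233 TPM in WT. Reads come from the 3' end only, so division by length can misplace long and short transcripts relative to each other.

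The wider lysosomal pathway was counted over 140 further genes, of which 110 were tested: 11 rose and 11 fell in dKO, and 10 rose and 7 fell in KO. These are 20% and 15.5% of the genes tested, beside 26.7% and 18.2% of all genes, and the median log2 fold change was -0.07 in dKO and -0.08 in KO. By pathway list, described in turn below, the share called ran from 9.09% to 30% in dKO and from 10% to 20% in KO. The count of rises was 7 without dKO 1, 7 without WT 1 and 6 in the larger run alone in dKO, and 4 without KO 1, 6 in the larger run alone and 5 by DESeq2 in KO. Scaling by library totals gave 20 rises and 7 falls in dKO and 18 rises in KO, and with only the libraries that lack Xist there were 1 rise and 1 fall in dKO and 5 rises in KO. Of the other lysosomal hydrolases, 2 rose and 2 fell of 30 tested in dKO, and 3 rose and 0 fell in KO. Scpep1, a serine carboxypeptidase, averaged 8.86 ± 0.78 CPM in dKO, 6.73 ± 2.17 CPM in KO and 4.68 ± 0.624 CPM in WT and rose in dKO by log2 0.90 ± 0.23 (adjusted p = 0.00852). Hyal1, a hyaluronidase, averaged 2.22 ± 0.522 CPM in dKO, 3.72 ± 1.47 CPM in KO and 1.26 ± 0.454 CPM in WT and rose in KO by log2 1.47 ± 0.40 (adjusted p = 0.0178), a call lost without KO 2 (log2 1.10, adjusted p = 0.118). The Hyal1 call in KO was also lost with DESeq2 and limma on unfiltered log2 TPM (log2 0.75 to 1.47, adjusted p from 0.051 to 0.0712). The acid ribonucleases Rnaset2a and Rnaset2b, a near-identical pair whose reads the counting may have split, were called lower in dKO at log2 -0.66 ± 0.13 (adjusted p = 0.00158) and -0.71 ± 0.12 (adjusted p = 3.62e-04); with library totals Rnaset2a was at -0.43 (adjusted p = 0.0207).

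Of 28 tested further membrane and transport proteins, 5 rose and 2 fell in dKO, and 3 rose and 1 fell in KO. Ostm1, the beta subunit of the lysosomal chloride-proton exchanger, averaged 3.48 ± 0.526 CPM in dKO, 4.54 ± 0.119 CPM in KO and 10.6 ± 1.77 CPM in WT, at log2 -1.60 ± 0.23 in dKO (adjusted p = 7.56e-05) and -1.21 ± 0.24 in KO (adjusted p = 0.00205); with limma on log2(TPM + 1) the values were -0.93 (adjusted p = 9.61e-04) in dKO and -0.74 (adjusted p = 0.00886) in KO. Cd68, a classical macrophage protein, was at 5.37, 4.85, 5.04 and 5.52 CPM in dKO, 8.97, 1.35 and 8.51 CPM in KO and 1.84, 1.43, 1.15 and 1.58 CPM in WT, at log2 1.78 ± 0.45 in dKO (adjusted p = 0.00812) and 2.06 ± 0.47 in KO (adjusted p = 0.00581), where KO 2 was as low as WT and the KO call was lost without KO 1 (log2 1.69, adjusted p = 0.0539). The Cd68 call in KO was also lost with limma on unfiltered log2 TPM (log2 1.27, adjusted p = 0.0867). The dKO call of Cd68 was lost with the larger run alone (log2 1.76, adjusted p = 0.0536). Laptm5, a leukocyte protein, rose by log2 1.29 ± 0.28 in dKO (adjusted p = 0.00294) and 1.19 ± 0.30 in KO (adjusted p = 0.0116), the KO call being lost without KO 1 (log2 0.95, adjusted p = 0.093) and its value 0.77 (adjusted p = 0.0215) with limma on log2(TPM + 1). Litaf, a late endosomal protein, rose by log2 1.24 ± 0.22 in dKO (adjusted p = 4.98e-04); in KO its value was 0.72 ± 0.24 (adjusted p = 0.0464), a call lost without dKO 1, dKO 2, dKO 3, KO 1, KO 2, WT 1, WT 2 or WT 3 (log2 0.57 to 0.72, adjusted p from 0.0547 to 0.217). The Litaf call in KO was also lost with DESeq2 size factors, all genes kept, a fit of 2 groups, the run as a covariate, the larger run alone, the Xist covariate, DESeq2 and limma on unfiltered log2 TPM (log2 0.56 to 0.75, adjusted p from 0.0514 to 0.198).

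Of 11 further pump subunits and assembly factors tested, 0 rose and 1 fell in dKO, and 1 rose and 1 fell in KO. Atp6v0a2, an alternative a subunit found in Golgi and endosomes, averaged 9.55 ± 0.78 CPM in dKO, 9.61 ± 0.812 CPM in KO and 19.8 ± 3.84 CPM in WT, at log2 -1.05 ± 0.18 in dKO (adjusted p = 4.60e-04) and -1.03 ± 0.20 in KO (adjusted p = 0.0017). It was not called on the TPM scale, where its log2 fold change was -0.30 (adjusted p = 0.495) in dKO and -0.64 (adjusted p = 0.198) in KO. The assembly factor Ccdc115 rose in KO by log2 0.55 ± 0.18 (adjusted p = 0.0491), a call lost without dKO 1, dKO 3, dKO 4, KO 1, KO 2, KO 3, WT 2, WT 3 or WT 4 (log2 0.40 to 0.59, adjusted p from 0.0529 to 0.149). The Ccdc115 call in KO was also lost with DESeq2 size factors, all genes kept, a fit of 2 groups, the run as a covariate, the larger run alone, the Xist covariate, DESeq2 and limma on unfiltered log2 TPM (log2 0.50 to 0.64, adjusted p from 0.0545 to 0.103).

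Among 21 genes of sorting to the lysosome, 2 rose and 2 fell in each knockout. Gga2, an adaptor that loads mannose 6-phosphate receptors at the Golgi, averaged 26.1 ± 2.40 CPM in dKO, 26.8 ± 1.25 CPM in KO and 10.7 ± 3.40 CPM in WT, at log2 1.25 ± 0.20 in dKO (adjusted p = 2.13e-04) and 1.29 ± 0.21 in KO (adjusted p = 4.89e-04). Gnptab, the enzyme that starts the mannose 6-phosphate tag, averaged 3.85 ± 1.12 CPM in dKO, 3.36 ± 0.587 CPM in KO and 7.05 ± 1.60 CPM in WT. Its log2 fold change was -0.89 ± 0.27 in dKO (adjusted p = 0.0227), a call lost without dKO 3, dKO 4 or WT 1 (log2 -0.80 to -0.73, adjusted p from 0.0675 to 0.0727). The Gnptab call in dKO was also lost with library totals, the run as a covariate, the larger run alone, DESeq2 and limma on unfiltered log2 TPM (log2 -0.92 to -0.33, adjusted p from 0.0514 to 0.226). In KO its log2 fold change was -1.08 ± 0.30 (adjusted p = 0.0196), a call lost without KO 2, KO 3 or WT 1 (log2 -1.11 to -0.95, adjusted p from 0.057 to 0.070). The Gnptab call in KO was also lost with library totals and limma on unfiltered log2 TPM (log2 -0.88 to -0.42, adjusted p from 0.0546 to 0.161). In KO the sorting receptor Sort1 was at log2 -0.87 ± 0.20 (adjusted p = 0.00622) and the lysosome-positioning GTPase Arl8a at 1.15 ± 0.26 (adjusted p = 0.00545). The Sort1 call was lost with limma on log2 TPM in its 3 forms (log2 -0.73 to -0.57, adjusted p from 0.055 to 0.111).

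Regulators of lysosomal genes and of mTORC1 docking gave 2 rises and 4 falls of 20 tested in dKO, and 1 rise and 3 falls in KO. Tfeb itself was at 10.7, 10.5, 9.54 and 12.2 CPM in dKO, 12.3, 9.20 and 6.16 CPM in KO and 23.2, 21.8, 23.2 and 23.7 CPM in WT. Every knockout library was far below every WT library, at log2 -1.10 ± 0.19 in dKO (adjusted p = 4.27e-04) and -1.31 ± 0.21 in KO (adjusted p = 4.32e-04). The related factor Mitf averaged 22.1 ± 0.977 CPM in dKO, 18.4 ± 1.45 CPM in KO and 33.1 ± 7.83 CPM in WT, at log2 -0.58 ± 0.17 in dKO (adjusted p = 0.0166) and -0.85 ± 0.18 in KO (adjusted p = 0.00434); the dKO call was lost with library totals, the run as a covariate, the larger run alone, the Xist covariate and limma on log2 TPM in its 3 forms (log2 -0.61 to -0.34, adjusted p from 0.0599 to 0.114). RNA levels say nothing of where these proteins lie in the cell.

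At the docking site, the Rag GTPase gene Rragd averaged 64.3 ± 5.84 CPM in dKO, 78.1 ± 8.58 CPM in KO and 122 ± 29.6 CPM in WT. Its log2 fold change was -0.93 ± 0.17 in dKO (adjusted p = 8.14e-04) and -0.65 ± 0.19 in KO (adjusted p = 0.0236), the KO call being lost without KO 1, KO 2, KO 3, WT 1 or WT 2 (log2 -0.70 to -0.55, adjusted p from 0.0583 to 0.0803). The Rragd call in KO was also lost with library totals, a fit of 2 groups and limma on log2 TPM in its 3 forms (log2 -0.64 to -0.45, adjusted p from 0.0704 to 0.263). The Ragulator subunit Lamtor3 averaged 59.1 ± 5.23 CPM in dKO, 61.7 ± 1.70 CPM in KO and 39 ± 3.65 CPM in WT, at log2 0.60 ± 0.13 in dKO (adjusted p = 0.00276) and 0.66 ± 0.14 in KO (adjusted p = 0.00332). Between dKO and KO, 0 of the 110 genes were called.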

How the data were processed

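The deposited gene tables hold expected counts, which the authors made on GRCm38 (mm10) with RSEM 1.3.3, STAR 2.7.0 and fastp 0.20.0, per the submitters' processing notes; a deposited table holds TPM. The annotation release and strand setting are not given in the sources used here. Of the count columns, 6 matched no sample and stayed out. The expected counts were rounded (2.25% were not whole) and tested with edgeR 4.0.16 in R 4.3.3: filterByExpr, TMM, a robust quasi-likelihood fit of 3 groups over 11 libraries with no covariate, and Benjamini-Hochberg adjustment over 10505 genes, called under 0.05. The biological coefficient of variation was 20.6%, with 8 residual degrees of freedom. Library totals differed up to 2.27-fold, and no library was a repeat of another (lowest chi-square per degree of freedom 3.04).

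Positions came from GENCODE M21. The members, the lists and the tests were chosen with earlier results of these data known. Per-library values are given for members called in any contrast, up to 4 a role group by adjusted p, or the 2 with the highest CPM where none was called; likewise up to 4 called genes of each pathway list are named. Members outside that rule are described so that every member is accounted for, and Mcoln1, Ctsd, Ctsb, Ctsl, Lyz2 and Mrc1 were chosen as examples after their values were seen. Alternatives were other scalings, no filter, 2 groups only, run or Xist as covariates or left out, DESeq2 1.42.0, limma 3.58.1 on log2 TPM with a pseudocount of 1 or 0.1, and each library left out. The edgeR steps were tested on simulated data.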

Additional observations from a re-analysis of the deposited data

Results flagged for a closer look

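In 9 of 86 group-wise looks (4 dKO or 4 WT libraries, 43 genes), 1 library lay far from the other 3 relative to the group's range; chance flags about 1 in 20. WT 4 accounts for 4 of the 9: Ctsc was at 22.8 CPM there and at 31.8 to 32.1 CPM in the other WT libraries, Ctsd at 562 CPM against 305 to 342 CPM, Gaa at 124 CPM against 74.7 to 79.4 CPM, and Atp6ap1 at 56.4 CPM against 35.2 to 37.8 CPM. None of these 4 genes was called in dKO or KO with all libraries. Without WT 4, Ctsc was called lower in dKO (log2 -0.49, adjusted p = 0.0187). Other genes also changed without WT 4. Atp6v0c and Atp6v1f were called higher in both knockouts (log2 0.39 to 0.43, adjusted p from 0.00253 to 0.0321). Tpp1 was called lower in both (log2 -0.50 to -0.43, adjusted p from 0.0175 to 0.0194). Ctsh was called higher in dKO (log2 0.83, adjusted p = 0.0496). The dKO call of Lamp2 and the KO call of Psap were lost. WT 2 was low for Atp6v0e, at 17.5 CPM against 20.1 to 20.2 CPM. In dKO, Psap was at 451 CPM in dKO 2 and at 327 to 348 CPM in the others, and Lipa at 7.27 CPM in dKO 2 and at 4.36 to 4.51 CPM in the others. Cd63 was at 77.7 CPM in dKO 1 and at 109 to 109.6 CPM in the others, and Ctsf at 7.95 CPM in dKO 3 and at 10.7 to 11.04 CPM in the others. The calls of Psap and Cd63 in dKO held without those libraries.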

How the results depend on the processing

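The 22 called values of the 13 genes were recomputed under 23 alternatives: of 506 values 399 stayed called, 107 lost the call and 0 changed sign. Of 2461 recomputed values that were not called, 20 became called. With library totals, 12 genes were higher and 2 lower in dKO and 1 lower in KO, and limma on log2 TPM left 2 lower in KO with a pseudocount of 1 or 0.1, and 1 lower in dKO and 1 in KO with no filter. The 2 groups alone gave 2 lower in KO, and the larger run alone 3 lower in KO. The Xist covariate gave 4 higher in dKO, and the libraries without Xist 0 higher and 0 lower in dKO and 2 higher and 3 lower in KO; these use fewer samples. Leaving out each library gave 4 to 10 higher and 3 to 6 lower in dKO, 2 to 7 higher and 2 to 5 lower in KO, and 0 between dKO and KO. DESeq2 called 13 members in dKO and 9 in KO. The share of genes with the core, 36.8%, was 21.1% within 100 bases before the start and 18.4% for the 8-letter TCACGTGA, by construction. Over the 110 pathway genes library totals gave 20 higher and 7 lower in dKO and 18 higher and 5 lower in KO, the larger run alone 6 higher in each, and the libraries without Xist 1 higher and 1 lower in dKO and 5 higher in KO. The causes were not tested otherwise. By DESeq2, Ctsz, Hyal1, Litaf and Ccdc115 in KO and Gnptab in dKO lost the call. With n of 3 or 4, levels of a few CPM (Gusb, Lipa, Asah1, Mcoln1) have a wide SE. No paired analysis was possible because the replicate numbers follow the order of the records and pair nothing.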
